A study of Mus musculus with 6 samples.

Results

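The transcripts described here are those of 10 kinases that respond to diacylglycerol or calcium below phospholipase C gamma: the protein kinase C (PKC) genes Prkca, Prkcb, Prkcd, Prkce, Prkch and Prkcq, the diacylglycerol kinase genes Dgka and Dgkz, and the calmodulin-dependent kinase genes Camk4 and Camk2d. They were taken by symbol from an Affymetrix mouse array, and each of the 10 was measured, out of 19938 genes with a probe annotated to a single symbol. Where a gene had more than 1 such probe, the probe was chosen by its mean log2 intensity over the 6 arrays, the highest being used. That mean does not use the group labels, but the 10 genes were listed with earlier results of these arrays known and for the comparison below, so their values are given as a description and their count is not independent evidence of a direction.

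RNA came from mouse pre-B cells transformed with BCR-ABL1, a fusion tyrosine kinase that drives Philadelphia-positive acute lymphoblastic leukemia (ALL). All 6 samples carry the same background: Balb/c strain, age 4 weeks and a Blnk knockout genotype, per the labels. BLNK (also called SLP65) is the adaptor that brings phospholipase C gamma to the pre-B cell receptor. In 3 samples the cells were transduced with pMIG, a retroviral vector carrying GFP, and in 3 with Blnk (Slp65). GFP-positive cells were sorted 5 days later, so only cells that took up a vector were measured, and uptake itself is shared by both groups. The labels do not say whether samples of a group came from separate animals or cultures, so a p-value covers no more than the spread among these samples, and that spread may be technical.

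Phospholipase C gamma cuts a membrane lipid into diacylglycerol, which stays in the membrane, and a soluble inositol phosphate, which releases calcium from the endoplasmic reticulum. Conventional PKC enzymes need both diacylglycerol and calcium, calcium-independent PKC enzymes (delta, epsilon, eta and theta) need diacylglycerol alone, and diacylglycerol kinases end the signal by turning diacylglycerol into phosphatidic acid. Calcium acts through calmodulin on the CaM kinases and on the phosphatase calcineurin. In B cells PKC beta is known for linking the receptor to NF-kB, and PKC delta for restraining self-reactive cells.

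Median array intensity was 67.0 to 70.0 over all probes, and within a group any pair of arrays had a correlation across genes (not independent replicates) of at least 0.9951. The highest correlation of each array with an array of the other group was little lower, at 0.9928 to 0.9942. Blnk transcript, the transduced gene, stood at 926 to 1013 on the pMIG arrays and 2714 to 3342 on the Blnk arrays (log2 fold change 1.64, SE 0.09, limma adjusted p = 0.000101). The region of Blnk that the probe covers is not known here, and the pMIG level is therefore no check of the knockout. Of 14 measured pre-B markers, 3 lay below the array medians: the recombinase genes Rag1 and Rag2, and Dntt. The surrogate light chain gene Igll1 and Pax5, the B-lineage factor, were bright on all 6 arrays. Igll1 stood at 10104 to 10793 with pMIG and 8968 to 9383 with Blnk (log2 fold change -0.19, limma adjusted p = 0.227). Pax5 stood at 2859 to 3171. Of the 14, 2 rose and 1 fell by limma, where 2.51% of all 19938 genes rose and 1.1% fell. The kinase gene Blk (log2 fold change 0.88, limma adjusted p = 0.000649) and the receptor chain gene Cd79a (0.31, 0.0468) rose. The surrogate light chain gene Vpreb1 fell (-0.68, 0.00976). The groups of 3 arrays did not overlap for 3 markers that were higher and 5 that were lower. Over all genes these shares were 11.8% and 8.15%.

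Blnk and pMIG arrays differed in both directions within this kinase set. Prkcd and Prkcq, which encode calcium-independent PKC enzymes, rose with Blnk, while Prkch, of the same subgroup, and Camk4 fell. The other 6 did not pass the test. In this set, then, 4 of 10 genes passed, 2 upward and 2 downward, and the background over all 19938 genes was 3.61%, with 2.51% higher and 1.1% lower. The groups of 3 arrays did not overlap for 3 members that were higher and 4 that were lower, where 20.0% of all genes had separate groups (11.8% higher and 8.15% lower). Because the members were picked with this comparison known, nothing is read from these shares. The median log2 fold change was -0.05 over the members and 0.00 over all genes. RNA came from bulk cells, in which fewer cells of a kind and less transcript per cell cannot be told apart.

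**Figure D1:**
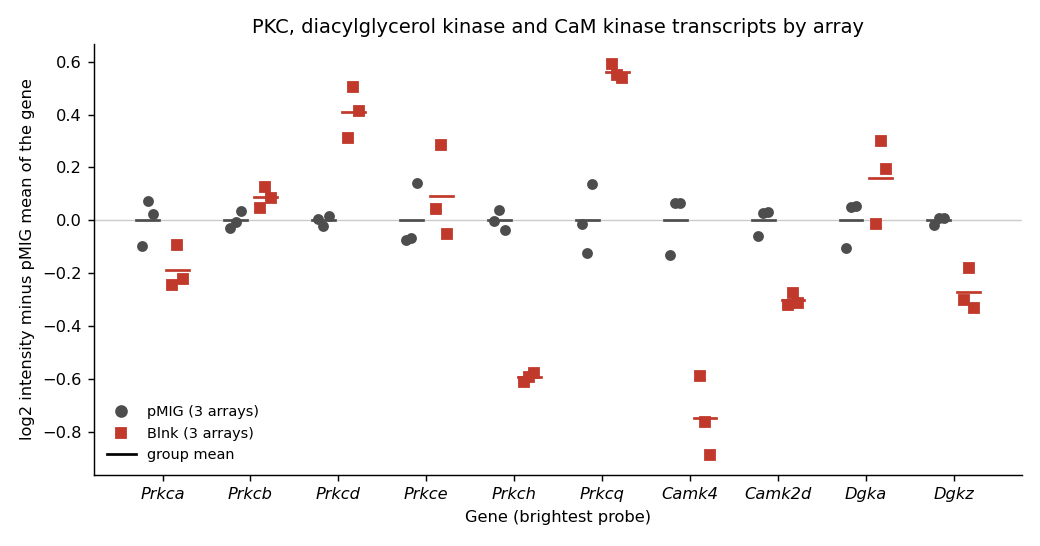
Log2 intensity of each gene on each array, minus the mean of the 3 pMIG arrays for that gene; circles are pMIG, squares are Blnk and bars are group means. The Blnk arrays lie apart from and above the pMIG arrays for Prkcb, Prkcd and Prkcq, and apart from and below them for Prkch, Camk4, Camk2d and Dgkz.

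Of the conventional PKC genes, neither passed the test. Prkcb, which encodes the main PKC of the B-cell receptor pathway, stood at 1349, 1370 and 1411 on pMIG arrays 1 to 3 and at 1422, 1503 and 1461 on Blnk arrays 1 to 3. Every Blnk array was above every pMIG array, but by little: the log2 fold change was 0.09 (SE 0.06, limma adjusted p = 0.610), with a 95% interval from -0.06 to 0.24. On the linear scale that interval spans changes of -4.31% to 17.8%. Prkca, the broadly expressed conventional PKC, stood at 815, 916 and 887 with pMIG, against 736, 816 and 748 with Blnk. The lowest pMIG array, 815, lay just below the highest Blnk array, 816, so the groups overlapped. Its log2 fold change was -0.19 (SE 0.08, limma adjusted p = 0.315; unadjusted p = 0.0456).

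Of the 4 calcium-independent PKC genes, 2 rose, 1 fell and 1 did not pass. Prkch, which encodes PKC eta, had intensities of 2514, 2588 and 2457 with pMIG and of 1649, 1668 and 1686 with Blnk. The 3 Blnk arrays lay close together and far below the lowest pMIG array. The group means were 2519.7 ± 65.7 and 1668 ± 18.5 (SD, n = 3), a decrease of 1.51-fold (log2 fold change -0.60, SE 0.06, limma adjusted p = 0.00228). Prkch passed with any 1 array left out, with limma adjusted p from 0.0141 to 0.0197, and under each of the 8 other settings tried.

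Prkcd encodes PKC delta. It stood at 993, 975 and 1001 with pMIG, against 1229, 1405 and 1319 with Blnk, so all Blnk arrays were higher and they also varied more. The means were 989.7 ± 13.3 and 1318 ± 88.0 (SD, n = 3), or 1.33-fold more (SE of the log2 fold change of 0.41 was 0.07, limma adjusted p = 0.0248). The call did not hold in most fits with fewer arrays: limma adjusted p was 0.0346 without Blnk 1, but leaving out a pMIG array gave 0.0774 (replicate 1), 0.0986 (replicate 2) or 0.106 (replicate 3), and leaving out Blnk 2 or Blnk 3 gave 0.0907 or 0.101. The log2 fold change itself stayed between 0.36 and 0.46 in those 6 fits.

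Prkcq encodes PKC theta, the isoform best known from the T-cell receptor pathway. Its probe was among the dimmer ones of the set, at 109, 101 and 121 with pMIG, against 166, 161 and 160 with Blnk. The Blnk arrays lay close together and all above the pMIG arrays. The means were 110.3 ± 10.1 and 162 ± 3.21 (SD, n = 3), or 1.48-fold more (SE of the log2 fold change of 0.56 was 0.08, limma adjusted p = 0.0102). It did not pass when pMIG 1 was left out (limma adjusted p = 0.0529), nor when Blnk 1 (0.0597), Blnk 2 (0.0630) or Blnk 3 (0.0579) was, with log2 fold changes of 0.54 to 0.57 in these fits.

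Because PKC theta is typical of T cells, the 15 measured markers of T and NK cells were read beside it. Their summed intensity was 2276 to 2416 on the pMIG arrays and 2998 to 3594 on the Blnk arrays. Of the 15 only Cd2 passed, an adhesion receptor gene that mouse B cells also express, where 3.61% of all genes passed. Cd2 stood at 1373 to 1477 with pMIG and 2108 to 2680 with Blnk (log2 fold change 0.73, limma adjusted p = 0.00718). The higher summed intensity with Blnk was that of Cd2, and with Cd2 left out of the sum the groups overlapped. The part of T and NK cells in the Prkcq values was not tested. Of the 15 markers, 10 lay below the array medians. Among the T-cell receptor chain genes, Cd3d lay at 19 to 26 and Cd3g at 15 to 17 on the 6 arrays. Cd3e, at 73 to 91, lay near or above the medians. Zap70, at 160 to 172, was also above them. Cd28 stood at 173 to 177 with pMIG and 111 to 153 with Blnk (log2 fold change -0.49, limma adjusted p = 0.0852). Besides Cd2, Cd8a had the highest mean level of the list, at 134 to 255, with overlapping groups.

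Prkce, which encodes PKC epsilon, stood at 411, 413 and 478 with pMIG, against 446, 528 and 418 with Blnk. The groups overlapped, and the value was carried by 1 array: the log2 fold change was 0.09 (SE 0.11, limma adjusted p = 0.768), and it was -0.0038 without Blnk 2. The 95% interval for the change ran from -10.3% to 26.8%.

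The start regions of both PKC genes that rose, and of Camk2d, are shown to let their sequences be set beside the values. Camk2d was lower with Blnk on all arrays but did not pass (limma adjusted p = 0.0511). Prkch and Camk4, the genes that fell, have no window. They are RefSeq windows on GRCm38.p6 of 250 bases before to 50 bases after a start, on the coding strand, and 7 of the 10 genes have at least 1. Capitals mark a match, on either strand, to the E-box CACGTG or the NFAT core GGAAA, 2 of 4 motifs searched.
Prkcd, chr14:30626159-30626458, minus strand: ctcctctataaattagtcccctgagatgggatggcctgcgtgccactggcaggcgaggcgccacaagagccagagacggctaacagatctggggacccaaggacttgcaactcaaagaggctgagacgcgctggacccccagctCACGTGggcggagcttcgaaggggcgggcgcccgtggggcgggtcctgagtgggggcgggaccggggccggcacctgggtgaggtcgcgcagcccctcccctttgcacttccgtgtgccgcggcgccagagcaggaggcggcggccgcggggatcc
Prkcq, chr2:11172132-11172431, plus strand: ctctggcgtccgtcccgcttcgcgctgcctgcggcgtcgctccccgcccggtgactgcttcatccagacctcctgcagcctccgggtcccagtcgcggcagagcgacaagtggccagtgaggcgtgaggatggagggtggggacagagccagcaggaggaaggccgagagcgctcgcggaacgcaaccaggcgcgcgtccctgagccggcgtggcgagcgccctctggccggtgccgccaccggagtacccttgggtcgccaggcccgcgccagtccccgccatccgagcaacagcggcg
Camk2d, chr3:126596701-126597000, plus strand: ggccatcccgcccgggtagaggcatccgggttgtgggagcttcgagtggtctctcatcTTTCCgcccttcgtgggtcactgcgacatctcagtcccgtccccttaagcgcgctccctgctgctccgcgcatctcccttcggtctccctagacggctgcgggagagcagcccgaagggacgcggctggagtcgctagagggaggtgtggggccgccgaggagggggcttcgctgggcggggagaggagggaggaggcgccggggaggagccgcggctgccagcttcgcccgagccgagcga

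The Prkcd window holds 1 CACGTG, which 7.15% of the 32841 windows in the table also hold, and no GGAAA. The Prkcq window holds neither, and the Camk2d window holds 1 match to GGAAA, a short motif present in 61.4% of all windows. The other motifs were TTCNNNGAA for STAT factors (8.3% of windows) and TGACGTCA for CREB (1.79%). Neither is found in the windows printed. All 3 windows are rich in CG dinucleotides, with 26 in Prkcd, 37 in Prkcq and 31 in Camk2d, against a median of 7 over all windows. A match describes letters in a window and says nothing of binding, and the arrays do not show which start was used. Prkcd has a further window in the table, chr14:30610261-30610560, which holds 2 CG dinucleotides and no CACGTG.

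Of the diacylglycerol kinase genes, neither passed the test. Dgkz, which encodes the zeta isoform that ends diacylglycerol signals in lymphocytes, stood at 966, 985 and 984 with pMIG, against 794, 864 and 777 with Blnk. All Blnk arrays were below all pMIG arrays, and the log2 fold change was -0.27 (SE 0.07, limma adjusted p = 0.0946), with a 95% interval for the change of -25.9% to -7.24%. Dgkz passed under 3 of the 8 other settings: with dim genes left out (limma adjusted p = 0.0323), with a trended, robust variance prior (0.00895) and with 16 added before log2 (0.0368). Settings under which Dgkz did not pass included a replicate block (0.245) and arrays centred on their medians (0.291). Nor did Dgkz pass with any 1 array left out, with limma adjusted p from 0.107 to 0.258. With the mean of both its probes in place of the brighter one, its log2 fold change was -0.13 (limma adjusted p = 0.567). Dgka, the calcium-dependent alpha isoform, stood at 554, 616 and 619 with pMIG, against 589, 734 and 682 with Blnk. Its groups overlapped, and the log2 fold change was 0.16 (SE 0.10, limma adjusted p = 0.519), with a 95% interval for the change of -4.58% to 30.9%.

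Of the CaM kinase genes, Camk4 fell and Camk2d missed the threshold narrowly. Camk4 encodes a nuclear kinase known for phosphorylating CREB. Its intensity was 110, 126 and 126 with pMIG and 80, 71 and 65 with Blnk, so the Blnk values lie near the array medians of 69.0 to 70.0, where background makes up more of a signal. The means were 120.7 ± 9.24 and 72.0 ± 7.55 (SD, n = 3), a decrease of 1.68-fold and the largest change of the 10 genes (log2 fold change -0.75, SE 0.10, limma adjusted p = 0.00662). Camk4 did not pass without pMIG 3 (limma adjusted p = 0.0574) or without Blnk 2 (0.0539), with log2 fold changes of -0.71 and -0.74.

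Camk2d encodes the delta subunit of CaM kinase II, a holoenzyme that stays active after a calcium pulse. It stood at 1749, 1858 and 1864 with pMIG, against 1460, 1506 and 1468 with Blnk. The groups were well apart, with means of 1824 ± 64.7 and 1478 ± 24.6 (SD, n = 3), and the log2 fold change was -0.30 (SE 0.07, limma adjusted p = 0.0511). It passed under 5 of the 8 other settings, among them repeated quantile normalization (limma adjusted p = 0.0181) and array weights (0.0283). It did not pass with a replicate block (limma adjusted p = 0.184), arrays centred on their medians (0.194) or probes averaged per gene (0.0502). Camk2d passed in 0 of the 6 fits that left out an array, with limma adjusted p from 0.0725 to 0.183.

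**Figure D2:**
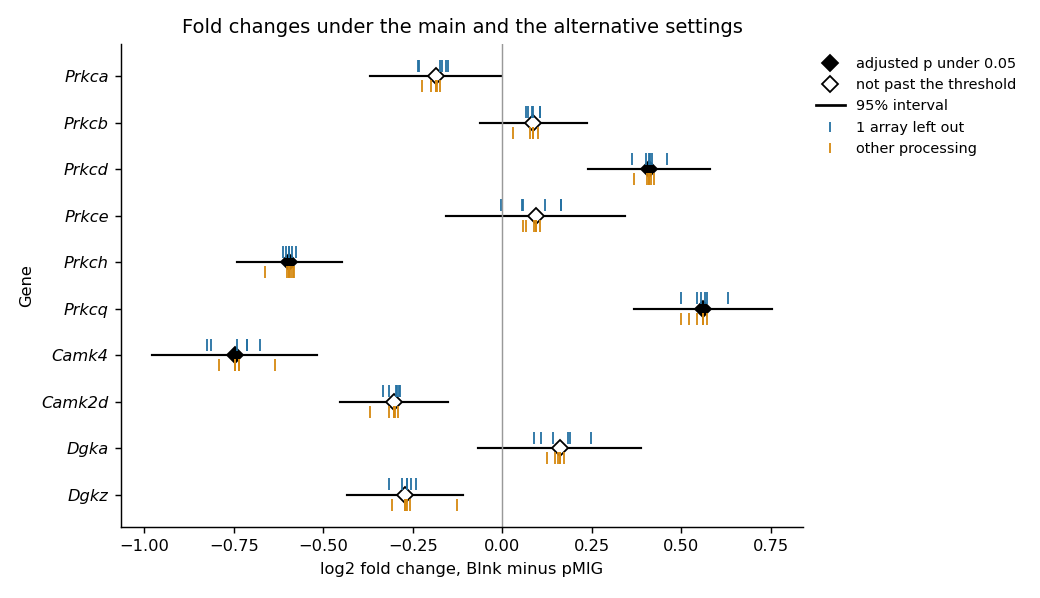
Log2 fold change, Blnk minus pMIG, of each gene: diamonds are the main fit, filled where adjusted p was under 0.05, and lines its 95% interval; blue ticks are fits with 1 array left out and orange ticks fits with other processing. Ticks stay on the side of the diamond for every gene but Prkce, whose lowest tick is at -0.0038.

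Prkch and Dgkz were each read by a second, dimmer probe, which the choice of the brightest probe set aside. The second Prkch probe stood at 282, 373 and 316 with pMIG, against 197, 289 and 164 with Blnk. The Blnk 2 array overlapped the pMIG range and the other Blnk arrays were below it. In a fit over all 21789 single-gene probes its log2 fold change was -0.61 (SE 0.20, limma adjusted p = 0.203), next to -0.60 for the brighter probe (0.00253), so its size was alike but it did not pass. The second Dgkz probe stood at 115, 80 and 114 with pMIG, against 108, 94 and 107 with Blnk, with a log2 fold change of 0.02 (SE 0.15, limma adjusted p = 0.984). Its 95% interval, from -0.33 to 0.36, includes the -0.27 of the brighter probe.

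**Figure D3:**
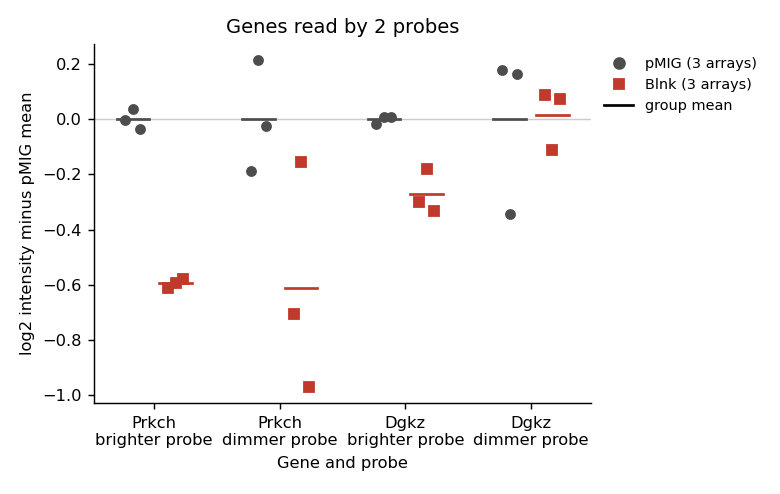
Log2 intensity minus the pMIG mean for the brighter and the dimmer probe of Prkch and Dgkz; circles are pMIG arrays, squares Blnk arrays and bars group means. The dimmer probes spread more between arrays, and only the brighter probes have groups that do not overlap.

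The rest of the pathway was read from 10 lists with 100 measured genes, of which 7 rose and 3 fell. Over all 100 the median log2 fold change was 0.04. Counts below are by limma over all genes, so each can be set beside the 2.51% of genes that rose and the 1.1% that fell. At an unadjusted p under 0.05 the shares over all genes were 8.91% higher and 6.32% lower.

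Among enzymes that make diacylglycerol, Plcg1 fell and 13 of 14 phospholipase C genes did not pass. Plcg1 encodes the gamma isoform that T cells and many other cells use, and stood at 615, 642 and 636 with pMIG, against 373, 404 and 400 with Blnk (log2 fold change -0.69, SE 0.07, limma adjusted p = 0.00153). It passed with any 1 array left out. Plcg2, the isoform that B cells use with BLNK, stood at 912, 1028 and 942 with pMIG, against 1155, 1173 and 1074 with Blnk. Its groups did not overlap and its log2 fold change of 0.24 did not pass (SE 0.08, limma adjusted p = 0.175). Plcl2, a phospholipase C relative without enzyme activity, was at 0.21 (limma adjusted p = 0.173).

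Among other proteins that bind diacylglycerol, 3 of 10 genes rose and 0 fell, with a list median of 0.03. All 3 encode RasGRP exchange factors, which activate RAS at membranes that hold diacylglycerol. Rasgrp3 went from 68, 67 and 71 to 251, 265 and 261 (log2 fold change 1.92, limma adjusted p = 2.26e-05), and Rasgrp1 from 860, 946 and 930 to 1485, 1572 and 1506 (0.74, limma adjusted p = 0.00125). Both passed with any 1 array left out. Rasgrp2, the remaining RasGRP gene of the list, had overlapping groups (-0.11, limma adjusted p = 0.662). Rasgrp4 was dim, at 59 to 70 with pMIG and 84 to 90 with Blnk (0.44, limma adjusted p = 0.0290), and passed only without pMIG 1 among the arrays left out, at up to 0.132 without pMIG 3.

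Of 7 other PKC, PKD and PKN genes, 0 rose and 1 fell. Prkd2, which encodes the PKD isoform of lymphocytes and is itself switched on by PKC, stood at 1109, 1225 and 1252 with pMIG, against 818, 865 and 881 with Blnk (log2 fold change -0.48, limma adjusted p = 0.0137). It passed only without pMIG 1 among the arrays left out, with limma adjusted p of 0.0582 to 0.0837 without any other. Prkd1 (0.19, limma adjusted p = 0.482) and Prkd3 (-0.13, 0.490) did not pass. Of 6 other diacylglycerol kinase genes, limma called 0 in either direction (at an unadjusted p under 0.05, 1 up and 0 down). The 3 with the smallest p were Dgke (0.21, limma adjusted p = 0.203), Dgkd (-0.14, 0.398) and Dgkk (0.09, 0.653).

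On the calcium side, Camk1g fell alone among 13 other CaM kinase genes. It encodes a membrane-bound member of the CaM kinase I family and went from 99, 93 and 110 with pMIG to 55, 38 and 47 with Blnk, below the array medians (log2 fold change -1.12, SE 0.14, limma adjusted p = 0.00429). It passed with any 1 array left out, and was at -0.90 with 16 added before log2. Dapk3 (0.27, limma adjusted p = 0.0660) and Eef2k (-0.22, 0.152) did not pass. Of 5 genes for calmodulin and CaM kinase inhibitors limma called 0 (at an unadjusted p under 0.05, 1 up and 0 down). Calm2, a calmodulin gene, was at 0.33 (limma adjusted p = 0.0885), Calm3 at 0.10 (0.572) and the inhibitor Camk2n1 at 0.07 (0.816).

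Of 10 genes of calcium release and entry, 1 rose and 0 fell. Orai1, the pore of the store-operated channel, stood at 145, 135 and 144 with pMIG, against 180, 195 and 181 with Blnk (log2 fold change 0.39, limma adjusted p = 0.0261), but with any 1 array left out it did not pass (0.0652 without pMIG 1, 0.104 without pMIG 2, the others in between). Its relative Orai2 (0.30, limma adjusted p = 0.0586), the pump Atp2a3 (0.27, 0.0589) and the receptor Itpr2 (-0.06, 0.819) did not pass. Among 13 calcineurin and NFAT genes 1 rose, Nfatc1, from 463, 492 and 502 to 703, 769 and 695 (0.57, limma adjusted p = 0.00583), and it passed with any 1 array left out. Nfatc3 (0.30, limma adjusted p = 0.0695) and the calcineurin subunit Ppp3cc (-0.16, 0.330) did not.

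Below PKC, 2 of 9 genes rose and 0 fell, with a list median of 0.14. Malt1, the protease of the complex that carries PKC signals to NF-kB, went from 1210, 1169 and 1204 to 1605, 1777 and 1700 (log2 fold change 0.50, limma adjusted p = 0.00784; 0.0528 without pMIG 3). Marcks, a membrane protein that PKC phosphorylates, went from 118, 155 and 164 to 219, 221 and 217 (0.60, limma adjusted p = 0.0398). The pMIG 1 array was lowest for Marcks, and without it the limma adjusted p was 0.0336; without any other array it was 0.0711 to 0.160. Bcl10, the partner of Malt1, was at 0.40 (limma adjusted p = 0.0936). Of 13 CaM kinase targets and CREB family genes, limma called 0 (at an unadjusted p under 0.05, 4 up and 2 down). Mef2a (0.32, limma adjusted p = 0.0858), Crtc2 (0.42, 0.0936) and Mef2c (0.23, 0.119) had the smallest p.

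**Figure D4:**
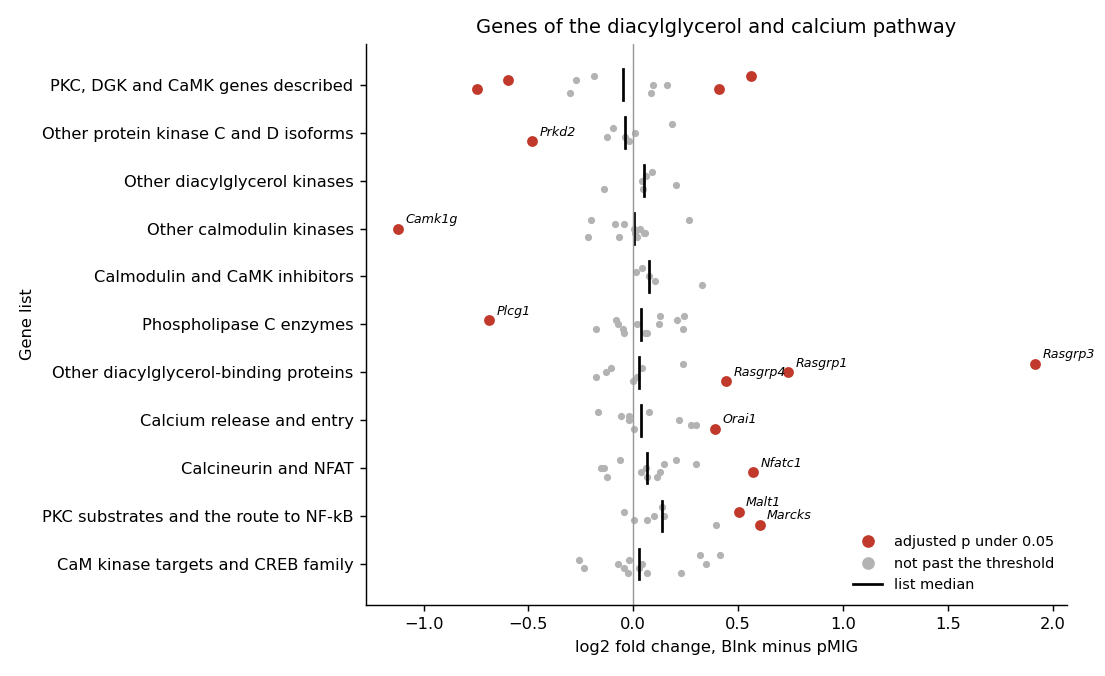
Log2 fold change, Blnk minus pMIG, of each measured gene by list; red points passed an adjusted p of 0.05, grey points did not, and bars are list medians. Named genes lie on both sides of 0, from Camk1g at -1.12 to Rasgrp3 at 1.92, while list medians lie between -0.05 and 0.14.

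Markers of 3 further kinds of cell were read in the same way. Of 13 myeloid markers, 12 lay below the array medians, including Csf1r at 32 to 39 and Lyz2 at 28 to 33. The remaining one, Fcgr1, an Fc receptor, rose by 0.74 on the log2 scale (limma adjusted p = 0.00377), and Prtn3, the next in level, lay at 42 to 54. The summed level of the 13 was 510 to 564 with pMIG and 620 to 643 with Blnk. Fcgr1 alone stood at 135 to 160 with pMIG and 233 to 258 with Blnk, and with Fcgr1 left out of the sum the groups overlapped. Of 6 erythroid and megakaryocyte markers limma called 0 (0 also at an unadjusted p under 0.05). Their summed level was 4104 to 4111 with pMIG and 3678 to 3971 with Blnk. Tfrc, the transferrin receptor of dividing cells, lay at 3887 to 3930 with pMIG and 3474 to 3771 with Blnk, and Itga2b at 57 to 86 on all arrays. Of 9 stromal and endothelial markers only Pecam1, which B cells also express, rose (0.64, limma adjusted p = 0.00339), and Col1a1 lay at 108 to 149. The summed level of the 9 was 951 to 1032 with pMIG and 1201 to 1311 with Blnk. Pecam1 alone stood at 467 to 507 with pMIG and 725 to 806 with Blnk, and with Pecam1 left out of the sum the groups overlapped. Whether any of these levels has a part in the kinase values was not tested.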

How the data were processed

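Total RNA from 6 samples was hybridised to 1 Affymetrix array each. The deposited values are linear intensities, whole numbers from 3 to 22187, and per the submitters' processing notes the authors used RMA (version not given in the sources used here). That these are RMA values returned to a linear scale and rounded is inferred from the values. Log2 was taken with nothing added.

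Of 35421 probes, 21789 had 1 symbol in the platform annotation, 1621 had several and 12011 were not listed; only the first entered, 1 (the brightest) per gene, giving 19938 genes. Entrez identifiers matched a GRCm38.p6 gene table for 21698 probes, and 0 symbols changed. A probe may also read close relatives of its gene.

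The comparison used limma 3.58.1 (lmFit, then eBayes) under R 4.3.3 with group as the only term, two-sided, with Benjamini-Hochberg adjustment over all 19938 genes and a threshold of 0.05. The code was tested on simulated data. Array number limits precision. Fold changes are Blnk minus pMIG, SE is limma's, and SD is of linear intensities. In each pathway list the 3 genes with the smallest adjusted p were named, with Plcg2, Rasgrp1, Rasgrp3, Itpr2, Nfatc1 and, of each other cell type's markers, the 2 with the highest level plus Cd3e, Csf1r and Lyz2; some genes of that rule are not reported here. Other marker genes were named after their values were seen. The members and lists were chosen with earlier results of these data known. No set test was run.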

Additional observations from a re-analysis of the deposited data

How the results depend on the processing

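Every one of the 10 kinase genes kept its direction under the 8 alternatives that did not drop an array, and 9 did so with any 1 of the 6 arrays left out, the exception being Prkce (-0.0038 without Blnk 2, up to 0.16 without Blnk 3). Calls moved more than sizes. Over all genes, 720 calls became 289 with a replicate block, 1228 without dim genes (below the 40th percentile), 1539 with a trended, robust variance prior, 1100 with 16 added before log2, and 267 to 437 with 1 array left out. In the kinase set 4 calls became 1, Prkch, with a replicate block (limma adjusted p = 0.117 for Prkcd and 0.0617 for Prkcq and for Camk4) and 1 to 3 with 1 array left out; under the other settings 4 to 6 passed. In the pathway lists 10 calls became 5 with a replicate block, 20 without dim genes, 24 with the trended, robust prior, 19 with 16 added, and 5 to 9 with 1 array left out. Fewer arrays weaken the test by construction. The replicate block estimates more terms from the same 6 arrays, and without dim genes the adjustment covers 11963 genes. How much these or other causes moved the counts was not tested. The replicate numbers are not known to pair the samples: deviations of same-numbered samples correlated at -0.19, 0.06 and -0.12, and no sample correlated best with its own number. Low signal limits Camk4, Camk1g, Rasgrp3 and Rasgrp4 among the called genes, whose intensities reach the array medians in a group; with 16 added before log2 Rasgrp3 was at 1.70 in place of 1.92. The fit over all probes was added after seeing the data.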
